A study of Mus musculus with 4 samples.

Results

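Fetal-like regenerative epithelium is described here by 7 marker genes, Ly6a, Ly6c1, Clu, Anxa1, Anxa10, Msln and Spp1, which were chosen by name and are 7 of the 44788 gene rows in the count table. RNA from mouse colon tissue on a C57BL/6 background was sequenced in 4 libraries, 1 for each group: untreated wild type (WT, day 0), untreated mice labelled Card9-/- (day 0), WT after AOM/DSS (day 100) and mice labelled Card9-/- after AOM/DSS (day 100). AOM/DSS models colon tumours that arise in an inflamed gut: mice receive the mutagen azoxymethane (AOM, 10 mg/kg into the peritoneum on day 1) and then the gut irritant dextran sulfate sodium (DSS, 2% in drinking water, 36 to 50 kDa, starting after 5 days, in 3 cycles of 7 days). Treatment and day of collection coincide, so they cannot be told apart. The sources used here do not give the number of animals behind a library, how the Card9 allele was made, or which stretch of colon was taken.

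When the gut lining is injured, the adult crypt can leave its usual stem cell programme for a state that resembles the fetal gut. Cells in that state carry the surface protein encoded by Ly6a, known as Sca-1, together with clusterin and annexins, and the state is known to depend on the coactivator YAP and its partner TEAD factors and to stand opposite to the Lgr5 stem cell programme. None of the 7 genes belongs to epithelium alone. As background, Ly6a and Ly6c1 are also made by endothelial cells and leukocytes, Spp1 by macrophages, Msln by the mesothelium that covers the bowel, and Ly6a is induced by interferon. The libraries are of whole tissue, so more cells of a type and more RNA per cell cannot be told apart.

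Library totals ran from 23022885 to 27706567 counts. The library labelled Card9-/- after AOM/DSS stood apart from the other 3: across 18484 genes its correlation with them on the log2 scale was 0.868 to 0.890, against 0.954 to 0.963 among the others. Card9 itself had 44 counts in untreated WT, 69 in the untreated labelled knockout, 116 in WT AOM/DSS and 245 in the labelled knockout after AOM/DSS. It was 1.82-fold (95% counting interval 1.23 to 2.72) and 1.45-fold (1.16 to 1.83) higher in the libraries labelled Card9-/- than in the matching WT libraries. The target thus goes against the label, and a group is called the labelled knockout throughout; each direction drawn from it rests on the label alone. All 10 pan-epithelial markers were counted in each library, at a summed 9794 to 13992 CPM (counts scaled to library size with TMM factors).

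The genes lie on 6 chromosomes of GRCm38. Ly6a (chromosome 15, 74994877 to 74998031) and Ly6c1 (chromosome 15, 75044018 to 75048830) are neighbours on the minus strand. Clu lies on chromosome 14 (65968483 to 65981547), Anxa1 on chromosome 19 (20373428 to 20390944), Anxa10 on chromosome 8 (62057042 to 62123150), Msln on chromosome 17 (25748613 to 25754378) and Spp1 on chromosome 5 (104435118 to 104441050). RefSeq promoter windows (GRCm38.p6, 250 bases before to 50 after the start) were found for 4 of the 7, Ly6c1, Anxa1, Anxa10 and Spp1, which have 6 windows. They were searched on both strands for CATTCC (TEAD, in 14.66% of 32851 windows of this length), TGANTCA (AP-1, 7.81%), CTTTGAT (TCF, 3.73%) and TTCNNNGAA (STAT, 8.3%), and no hit overlapped another. Anxa1 held 1 TEAD match, 236 bases before the start, and Anxa10 held 2 AP-1 matches, 180 and 16 bases before it. The Ly6c1 and Spp1 windows held none of the 4 motifs. The windows below are shown for the 2 annexins, which hold the matches, and for Ly6c1, which had a larger fold than Ly6a, Clu and Anxa1 in the labelled knockout pair, though a smaller one than Clu and Anxa1 in WT; capitals mark the matches.
Anxa1, chr19:20390622-20390921, minus strand: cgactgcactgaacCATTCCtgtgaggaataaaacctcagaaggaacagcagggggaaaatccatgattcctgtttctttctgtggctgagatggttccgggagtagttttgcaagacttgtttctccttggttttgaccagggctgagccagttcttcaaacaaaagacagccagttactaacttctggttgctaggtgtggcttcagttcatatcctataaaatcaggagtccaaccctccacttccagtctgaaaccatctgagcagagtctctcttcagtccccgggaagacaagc
Anxa10, chr8:62123144-62123443, minus strand: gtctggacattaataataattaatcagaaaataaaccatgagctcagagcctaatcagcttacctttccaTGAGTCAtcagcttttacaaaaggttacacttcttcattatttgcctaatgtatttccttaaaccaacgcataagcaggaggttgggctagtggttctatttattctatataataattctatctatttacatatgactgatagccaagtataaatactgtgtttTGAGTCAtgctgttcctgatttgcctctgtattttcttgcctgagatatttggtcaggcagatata
Ly6c1, chr15:75048788-75049087, minus strand: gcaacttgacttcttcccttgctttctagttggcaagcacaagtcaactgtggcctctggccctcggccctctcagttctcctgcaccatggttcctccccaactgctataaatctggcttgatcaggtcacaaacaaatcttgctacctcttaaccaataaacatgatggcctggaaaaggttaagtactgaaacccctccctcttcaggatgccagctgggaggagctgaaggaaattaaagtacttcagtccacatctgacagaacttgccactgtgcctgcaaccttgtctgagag

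**Figure D1:**
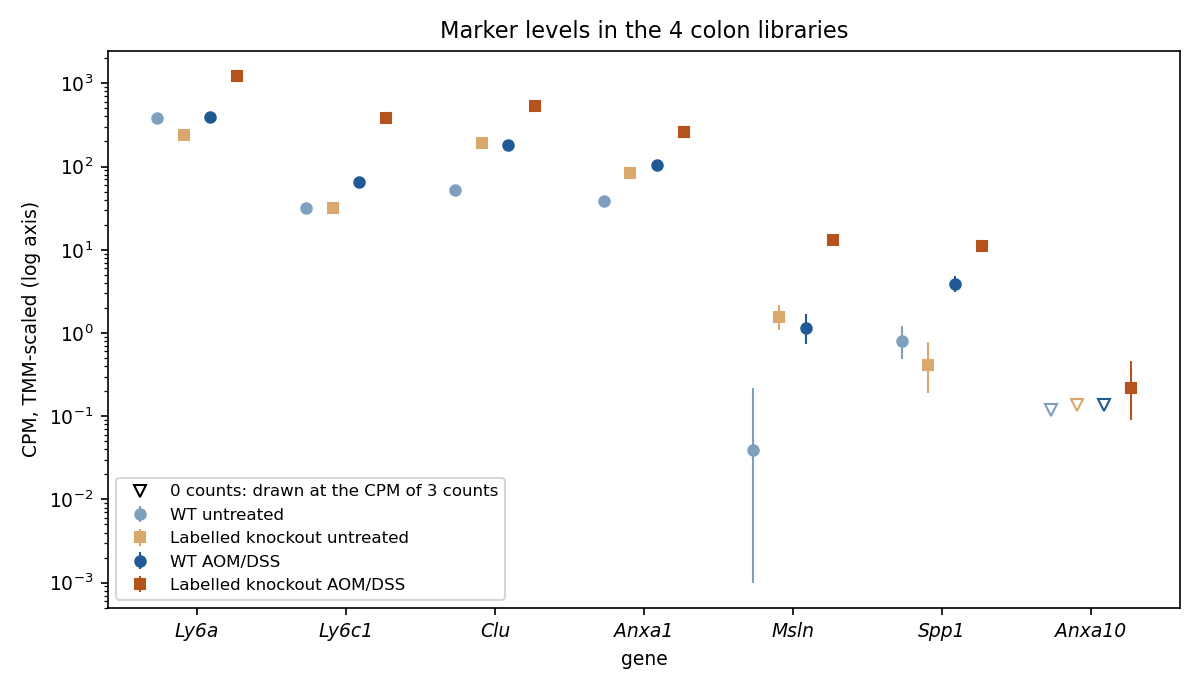
Level of each of the 7 markers in the 4 libraries, as TMM-scaled CPM on a log axis, with 95% Poisson intervals that cover counting error only; open triangles mark 0 counts. The labelled knockout after AOM/DSS is the highest of the 4 libraries for all 7, from 0.221 CPM for Anxa10 to 1209 CPM for Ly6a.

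All 7 markers were highest in the labelled knockout after AOM/DSS. That library was the highest of the 4 for 38.9% of the 16383 genes that reached 50 counts somewhere, and 6 of the 7 markers reached that count. Its share of each marker's summed CPM over the 4 libraries was 54.4% for Ly6a, 75.1% for Ly6c1, 55.9% for Clu, 53.5% for Anxa1, 82.5% for Msln and 68.8% for Spp1. The lowest library was not the same for all: untreated WT was lowest for Clu, Anxa1 and Msln, and the untreated labelled knockout for Ly6a, Ly6c1 and Spp1. Because every group is a single library, the spread between animals is unknown, no pair of libraries was tested, and the intervals cover counting error only.

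Ly6a stood at 380 CPM (9572 counts) in untreated WT, 240 CPM (5220 counts) in the untreated labelled knockout, 395 CPM (8612 counts) in AOM/DSS-treated WT and 1209 CPM (38313 counts) in the labelled knockout after AOM/DSS. The WT libraries were thus nearly level, at a ratio of 1.04 (1.01 to 1.07), a difference whose sign flipped when libraries were scaled by their totals (log2 ratio -0.01). The labelled knockout pair differed 5.03-fold (4.89 to 5.18). Before treatment Ly6a was 1.58-fold lower (1.53 to 1.64) in the labelled knockout than in WT, and after AOM/DSS it was 3.06-fold higher (2.99 to 3.14).

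Ly6c1, which encodes a related GPI-anchored protein, stood at 31.9 CPM (805 counts) and 31.6 CPM (686 counts) in untreated WT and the untreated labelled knockout, and at 64.9 CPM (1415 counts) and 386 CPM (12236 counts) in the same order after AOM/DSS. The untreated libraries did not differ beyond counting error (ratio 0.989, 0.892 to 1.10). Ly6c1 was 2.03-fold higher (1.86 to 2.22) after AOM/DSS in WT, right at the 2-fold limit, and 12.2-fold higher (11.3 to 13.2) in the labelled knockout. On the log2(CPM + 1) scale the WT ratio fell under the limit of 1 by other scalings. It was 0.94 by library totals, 0.98 by DESeq2 size factors and 0.99 by upper-quartile factors. After AOM/DSS the label differed from WT by 5.95-fold (5.63 to 6.29). There were 11.9 Ly6a reads per Ly6c1 read in untreated WT (11.1 to 12.8), 7.61 in the untreated labelled knockout (7.03 to 8.25), 6.09 in WT AOM/DSS (5.75 to 6.44) and 3.13 in the labelled knockout after AOM/DSS (3.07 to 3.20), so Ly6c1 took a larger part of the pair after AOM/DSS in both.

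Ly6 genes are alike enough to share reads. Of the 50-base windows of the Ly6c1 transcript, 36.7% also occur in another gene (31.7% in Ly6c2 and 5.03% in Ly6a), and of its 100-base windows 15.3% do, all in Ly6c2. Of the 50-base windows of Ly6a, 10.0% occur in another gene (4.42% in Ly6c1), and 0 of its 100-base windows. The Ly6c1 level and the Ly6a reads per Ly6c1 read are therefore uncertain to the extent that reads were divided with Ly6c2 or between Ly6a and Ly6c1. Ly6c2 stood at 8.61 CPM in untreated WT, 21.9 in the untreated labelled knockout, 9.90 in WT AOM/DSS and 65.6 in the labelled knockout after AOM/DSS, and was below Ly6c1 in each, with 1.44 to 6.55 Ly6c1 reads per Ly6c2 read.

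Clu encodes clusterin, a secreted chaperone whose expression marks revival stem cells after injury. It stood at 52.6 CPM (1326 counts) in untreated WT, 191 CPM (4149 counts) in the untreated labelled knockout, 180 CPM (3934 counts) in AOM/DSS-treated WT and 538 CPM (17057 counts) in the labelled knockout after AOM/DSS. Untreated WT was the low library, and the untreated labelled knockout already lay at the level of WT AOM/DSS. AOM/DSS went with 3.43-fold more Clu in WT (3.22 to 3.65) and 2.82-fold more in the labelled knockout (2.73 to 2.92). The label went with 3.63-fold more before treatment (3.41 to 3.86) and 2.98-fold more after it (2.88 to 3.09).

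Anxa1, which encodes a phospholipid-binding protein that limits inflammation through formyl peptide receptors, followed the same order except that WT AOM/DSS passed the untreated labelled knockout. It stood at 38.8 CPM (977 counts), 83.9 CPM (1823 counts), 104 CPM (2277 counts) and 262 CPM (8287 counts) in untreated WT, the untreated labelled knockout, WT AOM/DSS and the labelled knockout after AOM/DSS. The AOM/DSS folds were 2.69 (2.50 to 2.91) in WT and 3.12 (2.96 to 3.28) in the labelled knockout. The folds for the label were 2.16 (2.00 to 2.34) before and 2.51 (2.39 to 2.63) after treatment.

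Msln encodes mesothelin, a surface protein of mesothelium and of many carcinomas. It had 1 count in untreated WT (0.0397 CPM), 34 in the untreated labelled knockout (1.56 CPM), 25 in WT AOM/DSS (1.15 CPM) and 412 in the labelled knockout after AOM/DSS (13.0 CPM). The last of these was 8.31-fold above the untreated labelled knockout (5.85 to 12.2) and 11.3-fold above WT AOM/DSS (7.58 to 17.7). Against the single count of untreated WT the ratios were 28.9 for WT AOM/DSS (4.73 to 1186) and 39.4 for the untreated labelled knockout (6.62 to 1603), both with wide intervals that exclude 1. Of 8 other mesothelial genes, Upk3b, Lrrn4, Wt1 and Bnc1 had 0 to 8 counts in any library. Upk1b had 66, 21, 62 and 45 counts in the order of groups above, Gpm6a 27, 10, 10 and 22, and Nkain4 17, 10, 10 and 0. As CPM, Gpm6a and Nkain4 were highest in untreated WT. Upk1b was highest in WT AOM/DSS, at 2.84 CPM against 2.62 CPM in untreated WT, a difference within counting error. Msln, unlike these genes, was highest in the labelled knockout after AOM/DSS. The summed level of the 8 was 4.76 CPM in untreated WT, 2.44 CPM in the untreated labelled knockout, 6.51 CPM in AOM/DSS-treated WT and 19.7 CPM in the labelled knockout after AOM/DSS, of which Krt14, a keratin also of squamous epithelium, gave 17.0 CPM.

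Spp1 encodes osteopontin, a secreted ligand of integrins and CD44. It stood at 0.793 CPM (20 counts) in untreated WT, 0.414 CPM (9 counts) in the untreated labelled knockout, 3.90 CPM (85 counts) in AOM/DSS-treated WT and 11.2 CPM (356 counts) in the labelled knockout after AOM/DSS. Both AOM/DSS libraries lay above both untreated ones, with folds of 4.91 (2.99 to 8.44) in WT and 27.1 (14.1 to 59.8) in the labelled knockout. The label went with 2.88-fold more after AOM/DSS (2.27 to 3.70), while the untreated libraries did not differ beyond counting error (1.92-fold lower in the labelled knockout, 0.834 to 4.78).

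Anxa10, an annexin of gastric epithelium and of serrated colon lesions, had 0 counts in 3 libraries and 7 in the labelled knockout after AOM/DSS, which is 0.221 CPM (0.0888 to 0.455). A count of 0 allows up to 3 counts, or 0.119 to 0.138 CPM in those libraries. The counting intervals of its ratio to the untreated labelled knockout and to WT AOM/DSS start at 0.988 and 0.992, so at this depth a difference was not detectable. Of 11 other gastric-type genes, 3 were at least 2-fold higher in the labelled knockout after AOM/DSS than before it and 0 lower. In WT 1 was higher and 1 lower. Only 3 of the 11 held 50 counts over the 4 libraries, so the rest could not be called in either direction. Among all genes, 14.1% were higher and 15.9% lower in the labelled knockout pair, and 4.08% and 3.88% in WT. Cldn18, a tight junction protein of stomach and lung, had 0, 0, 0 and 81 counts in the order of groups above, Muc6 97, 13, 19 and 619, and Vsig1 4, 111, 73 and 684. Tff2 and Muc5ac did not follow, with 1 and 3 counts in the labelled knockout after AOM/DSS and 7 to 14 in the other libraries.

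**Figure D2:**
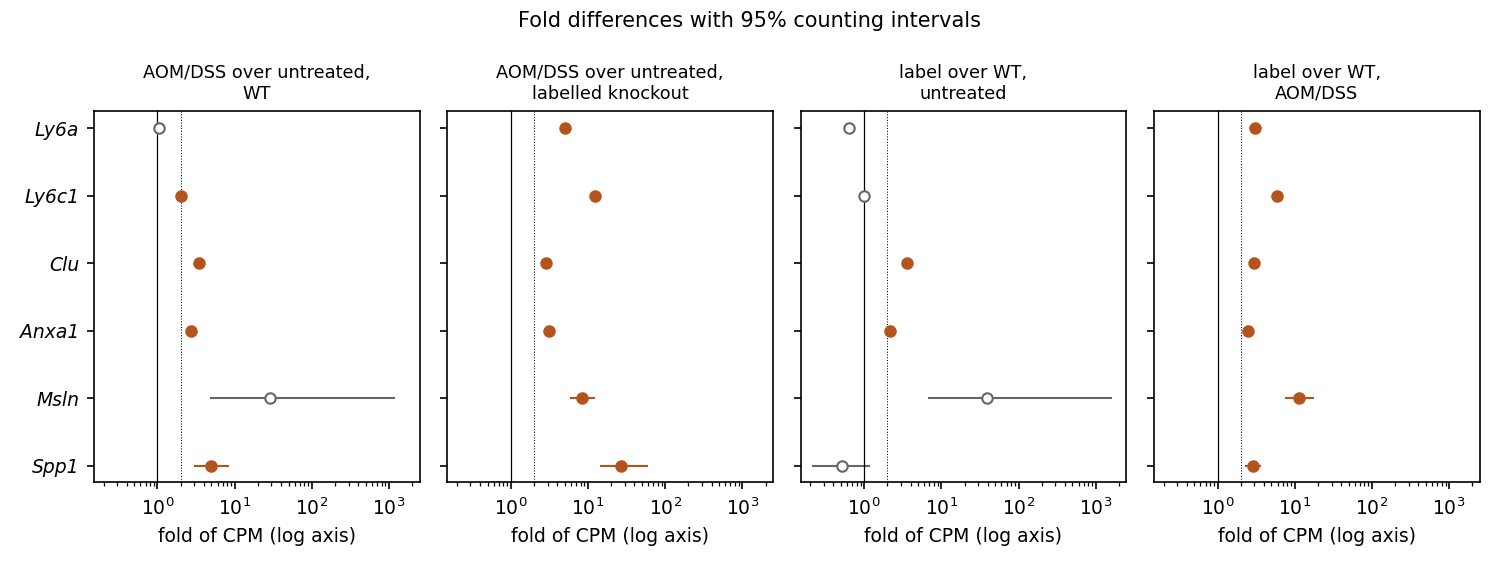
Fold of CPM in each of the 4 pairs of libraries for the 6 markers that reached 50 counts, on a log axis, with 95% counting intervals; filled points pass the size rule, the solid line is 1 and the dotted line 2. Ly6a is at 1.04 in the WT pair and 5.03 in the labelled knockout pair, and Msln has the widest intervals.

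A difference passed the size rule when it was at least 2-fold on the log2(CPM + 1) scale and the higher of the libraries held 50 counts or more. In WT, 4 of the 7 markers (Ly6c1, Clu, Anxa1, Spp1) were higher after AOM/DSS and 0 lower, where 4.08% of all 15356 genes tested were higher and 3.88% lower. In the labelled knockout, 6 of 7 were higher and 0 lower, where 14.1% of all genes were higher and 15.9% lower. The same 4 markers passed in both pairs. With 50 counts asked of any of the 4 libraries instead, Msln was also past 2-fold in both pairs. Its log2 ratios were 1.05 in WT and 2.45 in the labelled knockout. By that looser rule 1.73% of 16383 genes passed in both pairs. Before treatment, 2 of 7 (Clu and Anxa1) were higher in the labelled knockout than in WT and 0 lower, with 4.46% of all genes higher and 3.37% lower. After AOM/DSS, 6 of 7 were higher in the labelled knockout and 0 lower, with 11.9% of all genes higher and 12.4% lower. The median log2 ratios of the 6 markers with at least 50 counts were 1.23 and 2.39 for AOM/DSS in WT and in the labelled knockout and 0.54 and 1.59 for the label before and after treatment, against -0.01 to 0.02 over all genes with such counts. Scaling by library totals moved the median of all genes to 0.30 in the labelled knockout pair and 0.28 in the AOM/DSS pair, and the share of higher genes among those past the rule from 47.0% to 64.1% and from 48.9% to 64.2%, while the counts of markers in these 2 pairs were still 6.

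The AOM/DSS response of the labelled knockout exceeded that of WT by at least 1 on the log2 scale for 4 of the 7 markers, where 14.2% of 16383 genes did so and 16.3% did the opposite. The difference was 2.57 for Ly6c1, 2.27 for Ly6a, 1.66 for Spp1 and 1.40 for Msln. With a pseudocount of 5 CPM that of Spp1 was 0.97, under the limit, and 3 markers passed. That of Msln turned to -1.80 without the pseudocount, since its WT response rests on the single count. Clu (-0.27) and Anxa1 (0.22) differed less; that of Clu turned to 0.09 and that of Anxa1 came to 0.58 by library totals. Across all 4 libraries, an additive model of treatment and label with edgeR's quasi-likelihood test called 0 of 18973 genes for either term at an adjusted p of 0.05 (0% of genes), with 1148 and 746 genes at an unadjusted p under 0.05. Of the markers, 6 were tested, with adjusted p = 0.556 (Msln) to 0.896 (Ly6a) for treatment and 0.663 (Msln) to 1 for the label by edgeR. DESeq2's Wald test on the same design called 333 genes for treatment and 250 for the label, among them Ly6c1 (adjusted p = 0.0247), Msln (0.00524) and Spp1 (0.00431) for treatment and Msln (0.00106) for the label. With 4 libraries the model leaves 1 residual degree of freedom, and any difference between the treatment responses of the labels falls into it.

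The markers differed in the shape of their profiles. Over the 15 pairs that can be formed without Anxa10, profiles centred on each gene's mean log2(CPM + 1) lay closest for Clu and Anxa1 (Euclidean distance 0.57), followed by Ly6c1 with Spp1 and Clu with Msln (both 0.90), and farthest for Ly6a with Clu (1.82). Among 13965 other genes, Krt7, a simple keratin that is itself on the wider fetal-like list below, lay nearest to Ly6a (0.10), ahead of Syt16 and Apol6. Hk3, a hexokinase of myeloid cells, lay nearest to Ly6c1 (0.07), then Vill and Dnah17. Duoxa2, the maturation factor of the epithelial oxidase Duox2, lay nearest to Clu (0.17), then Ly6d and Hif1a, and Hif1a, the hypoxia-inducible factor, was also nearest to Anxa1 (0.32), then Rab32 and Mid1. Tnfrsf8, which encodes the lymphocyte receptor CD30, lay nearest to Msln (0.28), then S100a14 and Icam1, and Sema7a nearest to Spp1 (0.17), then Slc4a11 and Mfsd2a. These distances describe 4 libraries only, in which many genes share a shape.

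Per kilobase of exon, Ly6a was the most abundant marker in every library, at 315 CPM per kb in untreated WT, 199 in the untreated labelled knockout, 328 in WT AOM/DSS and 1004 in the labelled knockout after AOM/DSS. The next place changed hands: Ly6c1 (19.0 CPM per kb) stood above Clu (15.3) and Anxa1 (13.3) in untreated WT, Clu (55.6) above Anxa1 (28.8) and Ly6c1 (18.8) in the untreated labelled knockout, Clu (52.5) above Ly6c1 (38.7) and Anxa1 (35.9) in WT AOM/DSS, and Ly6c1 (230) above Clu (157) and Anxa1 (89.9) in the labelled knockout after AOM/DSS. Spp1 reached at most 6.82 CPM per kb and Msln 4.24, both in that library. The exon length of a gene counts all its annotated exons, so levels of genes with unused exons are understated.

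**Figure D3:**
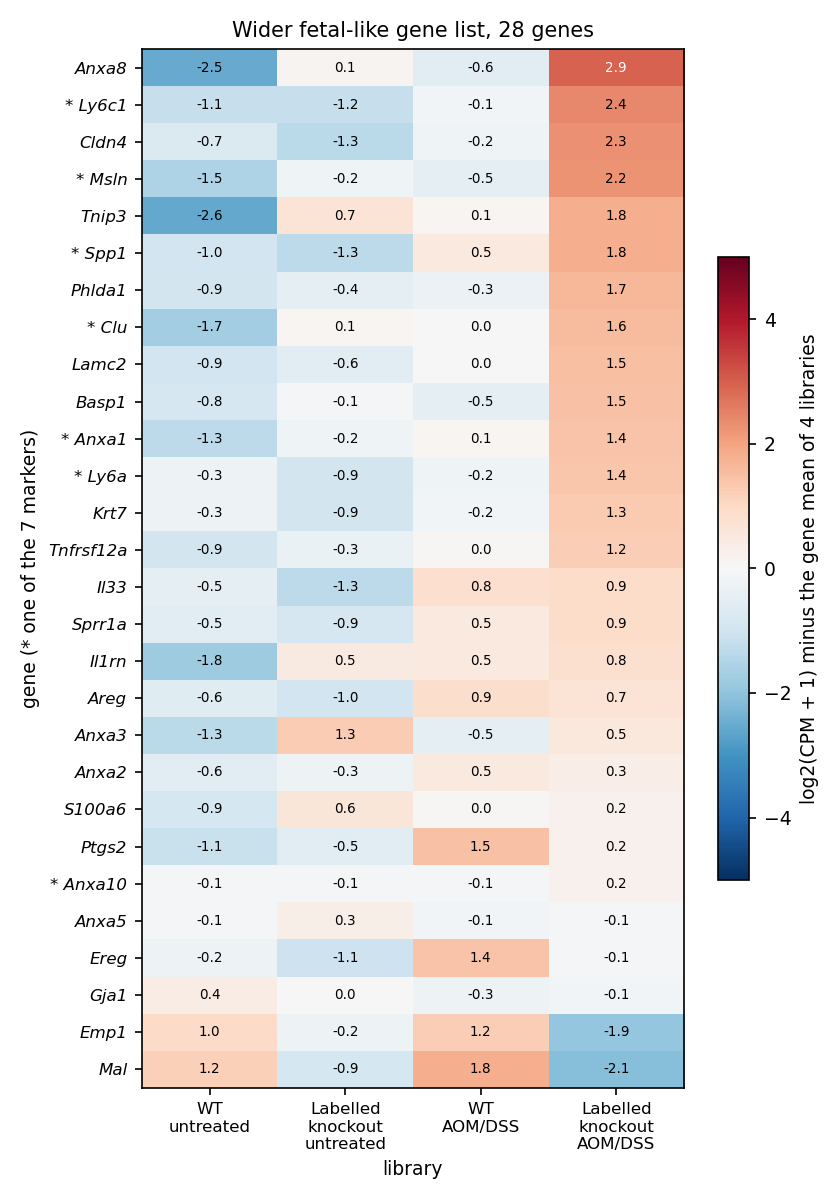
Level of 28 of the 29 genes of the wider fetal-like list in the 4 libraries, as log2(CPM + 1) minus the mean of each gene over the 4 libraries, ordered by the labelled knockout after AOM/DSS; stars mark the 7 markers. Among the genes drawn, Anxa8 stands farthest above its mean there, at 164 CPM, and Emp1 and Mal stand farthest below theirs.

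A wider list of 29 genes tied to the fetal-like state held 22 beside the 7 markers, and it did not move as a block. Of these 22, 9 were at least 2-fold higher and 0 lower after AOM/DSS in WT (median log2 ratio 0.94), and 12 were higher and 2 lower in the labelled knockout (median 1.34). Between the labels, 5 were higher and 2 lower in the labelled knockout before treatment (0.33), and 10 were higher and 4 lower after it (0.38). The corresponding medians of all 18484 genes with at least 50 counts over the 4 libraries were -0.03 to 0.01. For AOM/DSS, 4.08% of all genes were higher and 3.88% lower in WT, and 14.1% and 15.9% in the labelled knockout. For the label, 4.46% were higher and 3.37% lower before treatment, and 11.9% and 12.4% after it. Anxa8, an annexin of squamous and fetal epithelium, stood at 2.78 CPM in untreated WT, 22.7 in the untreated labelled knockout, 13.3 in AOM/DSS-treated WT and 164 in the labelled knockout after AOM/DSS, and Cldn4, a claudin, at 54.0, 34.8, 76.5 and 442 CPM in the same order. Mal, a raft protein of apical transport, stood at 87.2, 19.9, 137 and 7.89 CPM. It went the other way after AOM/DSS in the labelled knockout. In WT Mal was 1.57-fold higher after AOM/DSS (1.49 to 1.66), in the same direction as Anxa8 and Cldn4.

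Of 20 YAP and TEAD genes, 2 passed the size rule as higher after AOM/DSS in WT and 0 as lower, and 4 were higher and 1 lower in the labelled knockout, with median log2 ratios of -0.11 and 0.19. Of all genes, 4.08% were higher in the WT pair, and 14.1% were higher and 15.9% lower in the labelled knockout pair. Tead2, a DNA-binding partner of YAP, stood at 8.21, 9.48, 4.68 and 49.8 CPM in the order above, and Ajuba, a LIM protein that restrains the LATS kinases, at 4.88, 5.66, 4.91 and 36.3 CPM. Crim1 was lowest in the labelled knockout after AOM/DSS, at 21.5 CPM against 53.5 to 69.1 elsewhere. Cyr61, a YAP target, did not follow the markers: it was highest in the untreated labelled knockout at 31.2 CPM, against 8.69 in untreated WT, 20.8 in WT AOM/DSS and 24.1 in the labelled knockout after AOM/DSS.

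Of 10 crypt stem cell genes, 4 passed the size rule as lower and 0 as higher after AOM/DSS in WT (median -0.65), and 7 were higher and 0 lower in the labelled knockout (median 1.97). Beside these counts, 3.88% of all genes were lower and 4.08% higher in the WT pair. The shares in the labelled knockout pair were 14.1% higher and 15.9% lower. Lgr5, the receptor of crypt base stem cells, had 247 counts in untreated WT, 199 in the untreated labelled knockout, 38 in WT AOM/DSS and 3198 in the labelled knockout after AOM/DSS. There were 5.37 Clu reads per Lgr5 read in untreated WT (4.68 to 6.17), 20.8 in the untreated labelled knockout (18.1 to 24.2), 104 in WT AOM/DSS (75.3 to 147) and 5.33 in the labelled knockout after AOM/DSS (5.14 to 5.54). Clu and Lgr5 were both at their highest in the labelled knockout after AOM/DSS, whereas WT AOM/DSS had the lowest Lgr5 level and more Clu than untreated WT.

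Of the partners of the secreted markers, read beside the 4.08% of all genes that were higher in the WT pair and 14.1% in the labelled knockout pair, receptors of annexin A1 were higher after AOM/DSS in both pairs: Fpr1 stood at 0.436, 1.47, 4.17 and 7.51 CPM and Fpr2 at 0.793, 0.644, 3.30 and 15.2 CPM in the order of groups above, and Fpr3 had 0 counts throughout. Of 10 receptor subunits for osteopontin, 0 were past 2-fold after AOM/DSS in WT and 2 were higher in the labelled knockout, Cd44 (48.4 and 127 CPM) and Itgb6 (22.1 and 57.5 CPM), an epithelial integrin subunit. Of 6 partners of clusterin, 0 were higher in WT and 2 in the labelled knockout, Lrp8 (188, 154, 223 and 1310 counts) and Trem2 (21, 39, 38 and 197 counts). Muc16, the ligand of mesothelin, was low in both libraries labelled Card9-/-, at 0.230 and 0.347 CPM, against 4.21 and 3.94 CPM in WT. Among 12 annexins, 3 were higher and 0 lower after AOM/DSS in WT, and 2 were higher and 2 lower in the labelled knockout, the latter Anxa11 and Anxa13; the labelled knockout counts are near the shares of all genes there (14.1% higher, 15.9% lower). Among the other SIBLING phosphoproteins, the family of Spp1, Ibsp, Dspp and Mepe had 0 counts in all libraries and Dmp1 had 152, 13, 42 and 12.

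**Figure D4:**
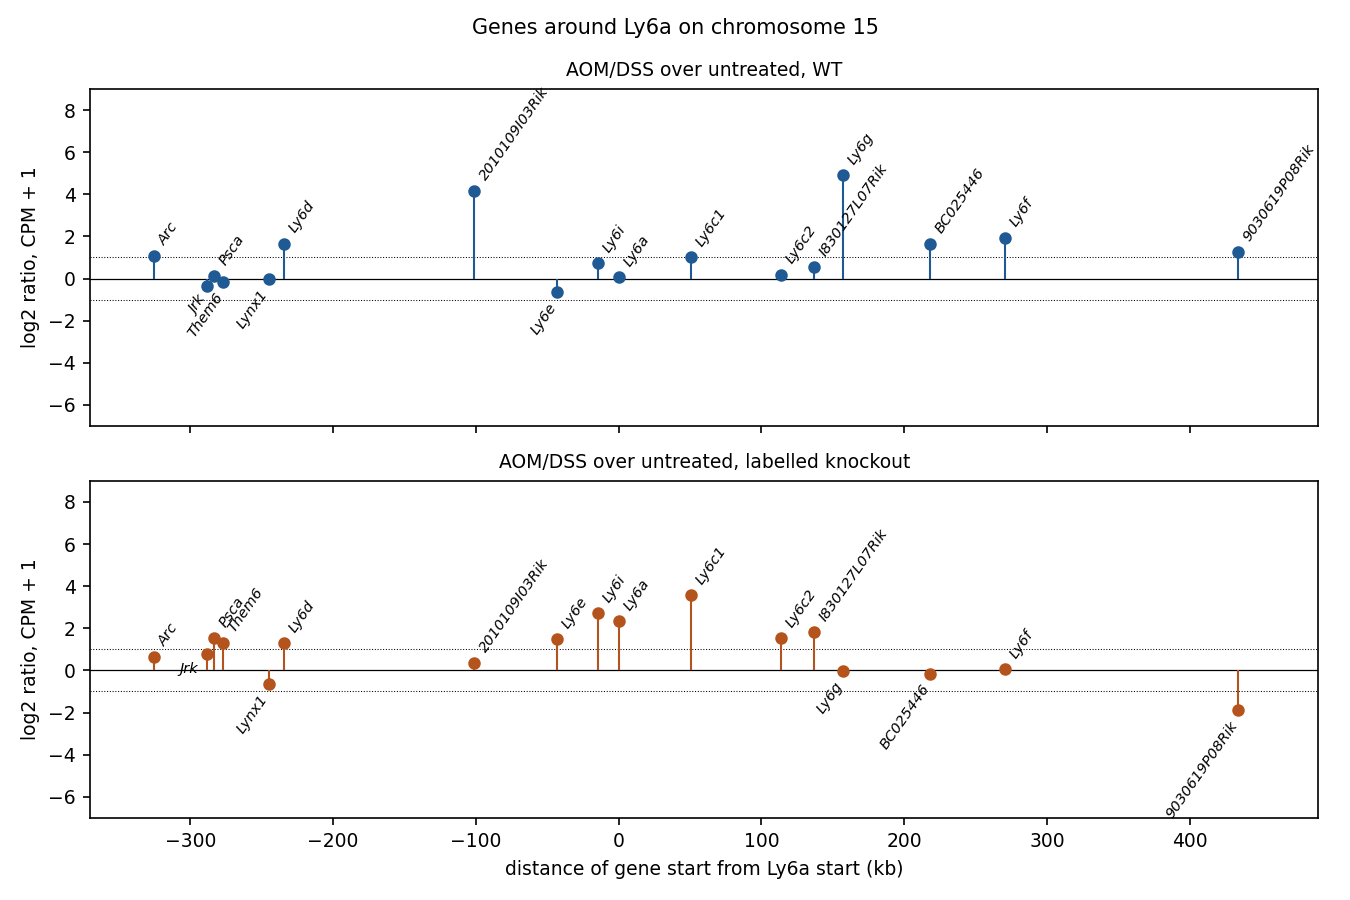
Log2 ratio of CPM + 1 after AOM/DSS for the genes within 500 kb of Ly6a that reached 50 counts, by distance of their start from that of Ly6a, in WT (top) and in the labelled knockout (bottom); dotted lines mark 2-fold. Ly6a is at 0.06 in WT and 2.33 in the labelled knockout, and Ly6g at 4.90 and -0.04.

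Ly6a and Ly6c1 sit in a cluster of related genes, whose members differed in how they followed them. Of 13 Ly6 family genes, the 2 markers included, 4 were higher and 0 lower after AOM/DSS in WT, and 7 were higher and 1 lower in the labelled knockout. Within 500 kb of Ly6a, 16 other genes reached 50 counts. After AOM/DSS in WT, 8 of them were at least 2-fold higher and 0 lower, and in the labelled knockout 8 were higher and 1 lower. Of all genes, 4.08% were higher in the WT pair and 14.1% in the labelled knockout pair. Ly6e, Ly6i, Ly6c1 and Ly6c2, singled out after their values were seen, were all past 2-fold in the labelled knockout, with log2 ratios of 1.47, 2.70, 3.57 and 1.54. In WT their ratios were -0.64, 0.73, 1.00 and 0.18. Ly6g, a surface protein of neutrophils, differed from these: it had 1 count in untreated WT, 1189 in the untreated labelled knockout, 654 in WT AOM/DSS and 1680 in the labelled knockout after AOM/DSS.

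**Figure D5:**
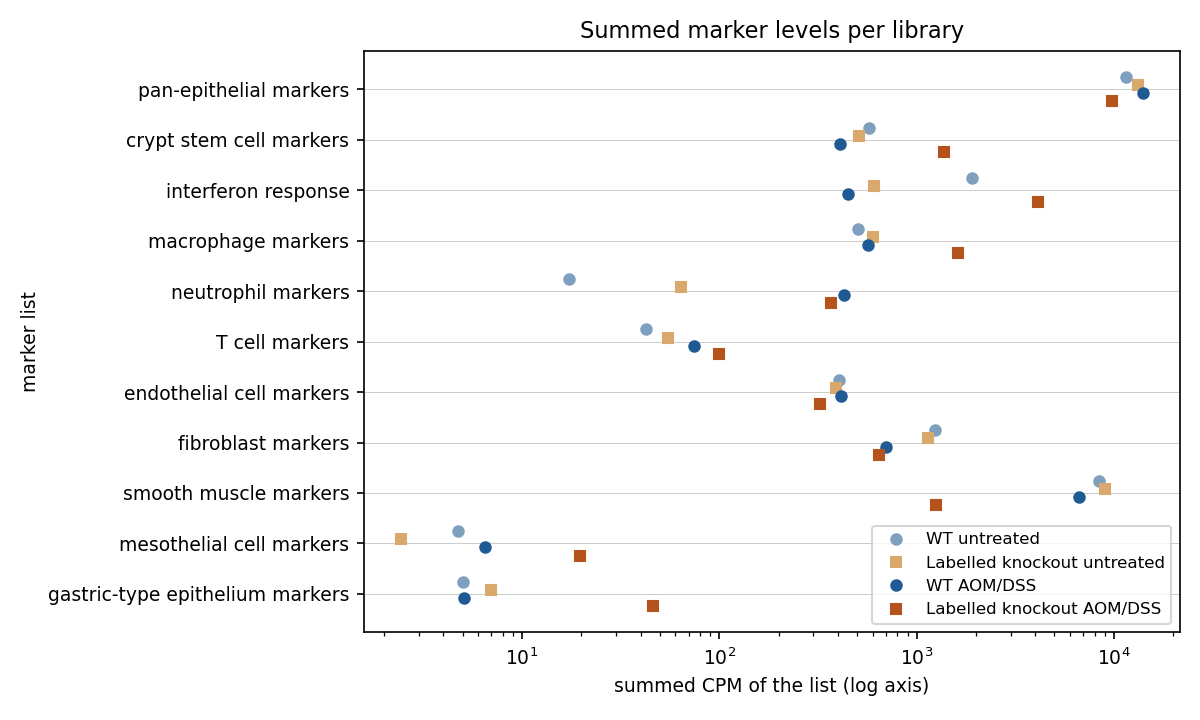
Summed CPM of marker lists for the epithelium and for other cells of the colon in the 4 libraries, on a log axis. In the labelled knockout after AOM/DSS the interferon list is at 4147 CPM and the macrophage list at 1621 CPM, both above the other 3 libraries, while smooth muscle is at 1261 CPM against 6637 to 8995.

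Markers of other cells moved beside the 7 genes. Among all genes, 4.08% were higher and 3.88% lower after AOM/DSS in WT. In the labelled knockout pair 14.1% were higher and 15.9% lower. Interferon response genes, a setting in which Ly6a is induced, summed to 1907 CPM in untreated WT, 606 in the untreated labelled knockout, 449 in WT AOM/DSS and 4147 in the labelled knockout after AOM/DSS, and 14 of 15 were at least 2-fold higher in the labelled knockout pair against 12 of 15 lower in WT. Macrophage genes, beside Spp1, summed to 506, 601, 569 and 1621 CPM in that order, with 1 of 10 higher and 2 lower in WT and 8 of 10 higher in the labelled knockout pair. Neutrophil genes summed to 17.4, 64.1, 430 and 367 CPM, with 8 of 10 higher in each AOM/DSS pair. Single genes made up most of the untreated sums: Mmp9 gave 13.0 CPM in WT and Ly6g 54.7 CPM in the labelled knockout. S100a8 stood at 0.0397 and 0.0921 CPM in these libraries, and S100a9 at 0.278 and 0.598 CPM. Fibroblast genes summed to 1243, 1143, 702 and 642 CPM, with 3 of 8 lower in WT and 4 lower and 1 higher in the labelled knockout pair. T cell genes summed to 42.8, 55.1, 74.2 and 100.3 CPM, with 2 of 9 higher in each of the 2 pairs. The labelled knockout count is near the share of all genes there. Endothelial genes, beside Ly6a and Ly6c1, were level, at 405, 390, 412 and 325 CPM, and 0 of 10 were past 2-fold in any of the 4 pairs. All 8 smooth muscle genes were lower in the labelled knockout after AOM/DSS than before it, and their sum was 8384, 8995, 6637 and 1261 CPM. The part of interferon, macrophages, neutrophils, fibroblasts, T cells and muscle content in the marker differences was not tested. Scaled to the summed pan-epithelial genes instead of library size, chosen after the data were seen, the count of markers higher was 3 in WT and 6 in the labelled knockout for AOM/DSS, and 1 before and 6 after AOM/DSS for the label. Scaled to the endothelial genes, these counts were 3, 6, 2 and 6.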

How the data were processed

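Counts per gene symbol were deposited by the authors as whole numbers, with no normalization, for 1 library per group and 44788 rows; 0 columns belong to other samples, and 27 symbols had become dates. Libraries were made with the Ion Proton RNA-seq kit, per the labels' protocols, and the submitters' processing notes name GRCm38 (mm10). Aligner, counter, annotation and strand setting: not given in the sources used here. Hence reads of overlapping genes on either strand cannot be told apart. Spp1 shares 309 exon bases with the predicted gene Gm42793, and Clu, Anxa1, Anxa10, Msln, Ly6a and Ly6c1 share none with another gene.

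CPM used TMM factors from edgeR 4.0.16 in R 4.3.3: 0.992 and 0.931 for the WT and labelled knockout libraries without treatment, 0.947 and 1.14 for those after AOM/DSS. Folds are ratios of CPM without a pseudocount, with exact conditional 95% intervals (Clopper-Pearson), and levels have exact Poisson intervals. Both cover counting error only, because each group has 1 library. The reads carry no molecular identifiers and may repeat a molecule, and such repeats would make both kinds of interval too narrow. Where a library had 0 counts, a floor of 3 counts in that library was used. The log2 ratios of the size rule have a pseudocount of 1 CPM, which understates differences of low genes. No p-value was computed between single libraries. The additive fit used filterByExpr, a robust quasi-likelihood fit and Benjamini-Hochberg adjustment over all genes tested, and gave 0.444 as biological coefficient of variation. It was also run on simulated counts with a smaller spread than that, which cannot show its power on these data. Positions, exon lengths and shared windows came from GENCODE M21 on GRCm38; GENCODE lengths are the union of a gene's exons.

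The 7 markers and the 20 gene lists were chosen with earlier results of these data known. Named genes were the markers, Card9, up to 4 genes of a list with the largest ratio in any pair, and the 3 genes with the nearest profile to a marker, leaving out predicted genes, pseudogenes, receptor segments and mitochondrial genes. Other genes, among them Tff2, Muc5ac, Fpr3, Upk3b, Lrrn4, Wt1, Bnc1, Gpm6a, Nkain4, Mmp9, Emp1, Ly6e and the SIBLING genes at 0, were named after their values were seen. Neighbours of Anxa10 are not named, because it had 7 counts. Of 211 list entries, 2 (Ly6l and Ly6m) were not matched. Alternatives were DESeq2 1.42.0 size factors and Wald test, upper-quartile factors, library totals, pseudocounts of 0.5 and 5 CPM, no count minimum or 200 counts, and leaving out genes that took over 1% of a library; scaling to pan-epithelial or endothelial genes was added after the data were seen. A gene of the wider fetal-like list is not reported here by name; it is part of the list's counts and medians.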

Additional observations from a re-analysis of the deposited data

Results flagged for a closer look

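The difference between label and WT had opposite signs before and after AOM/DSS for 3 markers, on the log2(CPM + 1) scale, with 1 library behind each value; the difference was not tested. For Ly6a the log2 ratio was -0.66 untreated and 1.61 after AOM/DSS, both beyond counting error. For Ly6c1 it was -0.0159 and 2.56, and for Spp1 -0.34 and 1.32, where the untreated value of each lay within counting error. Scaled to the endothelial genes, the untreated value of Ly6c1 was positive (0.0376), so its opposite sign was not kept. Krt7, the nearest profile to Ly6a, had the same shape, with 233 CPM in untreated WT, 148 in the untreated labelled knockout, 250 in WT AOM/DSS and 698 in the labelled knockout after AOM/DSS.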

How the results depend on the processing

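The counts of markers past the size rule in the labelled knockout pair (6) and of markers lower in any pair (0) were the same under all alternatives run. In the WT pair, the count of 4 fell to 2 with a pseudocount of 5 CPM and was 3 to 5 under the rest, the 5 with no count minimum. In the untreated pair, the count of 2 rose to 3 with no count minimum and fell to 1 when libraries were scaled to the pan-epithelial genes, an alternative chosen after the data were seen. After AOM/DSS, the label pair's count of 6 fell to 5 with a pseudocount of 5 CPM, where Spp1 stood at 0.87, and the count of 4 markers with a larger response in the labelled knockout fell to 3. The additive fit called 0 genes for either term with edgeR, and 333 (treatment) and 250 (label) genes with DESeq2's Wald test, or 81 and 62 with edgeR and no filter on low counts; the cause was not tested. No marker ratio past the size rule changed sign under any scaling or pseudocount run. No paired analysis was possible because each group has 1 library, and leaving out a library would remove a group. Depth limits Anxa10 (7 counts in all) and Msln and Spp1 in the untreated libraries (1 to 34 counts).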
